A study of Mus musculus with 16 samples.

Results

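The hearts of mice without the adenosine receptor A2AR were compared with those of wild-type littermates 24 h after lipopolysaccharide (LPS). The comparison used 8 of the 16 arrays of the series, chosen by their labels: 4 arrays of knockout and 4 of wild-type ventricular myocardium after LPS. All mice were male, 14 weeks old and on a CD1 background, an outbred stock, and came from one breeding series of a sub-colony of a published A2AR knockout line. The LPS, from E. coli, was given as 1 intraperitoneal injection of 20 mg/kg. The other 8 arrays, 4 of each genotype, were from mice injected with the saline vehicle alone and are set beside the LPS arrays here. The knockout removes the receptor from every cell of the animal, so leukocytes and vessels outside the heart lack it too. The labels call the 4 arrays of a group replicates without saying that each is 1 animal, so p-values measure the spread between these samples.

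The A2AR is a cell surface receptor that couples to the stimulatory G protein: adenosine, released by stressed and injured cells, raises cyclic AMP through it, which activates protein kinase A and the transcription factor CREB. On neutrophils, macrophages and lymphocytes it restrains the release of inflammatory mediators, and in the heart it is also found on coronary vessels and cardiomyocytes. LPS activates Toll-like receptor 4, and the endotoxemic heart turns on cytokines, chemokines and interferon-induced genes, takes up leukocytes and contracts less well.

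The values are log2 levels from Affymetrix arrays, and 18193 genes were tested, each through 1 probe set. Precision depends on the number of arrays and on the spread between them, and hybridisation gives no read depth. Heart muscle transcripts were high on the 8 arrays, where the median over all probe sets was 4.64. The 10 cardiomyocyte markers, among them Myh6, Tnnt2 and Myl2, had mean log2 levels between 13.34 and 13.60. The 5 atrial markers had means of 10.66 to 11.20, and the ventricular part of the tissue label was not tested. Pearson correlations over all genes were 0.971 to 0.994 among the wild-type arrays, 0.976 to 0.994 among the knockout arrays and 0.964 to 0.995 between the genotypes. Wild-type array 4 and knockout array 2 stood farthest from their groups, with root mean square deviations from the group mean of 0.371 and 0.319, and the other 6 arrays lay between 0.159 and 0.246. The first principal component (43.7% of the variance) put these 2 arrays at its opposite ends. Values without them are therefore given beside many of the results, and a result given without such values can still move.

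**Figure D1:**
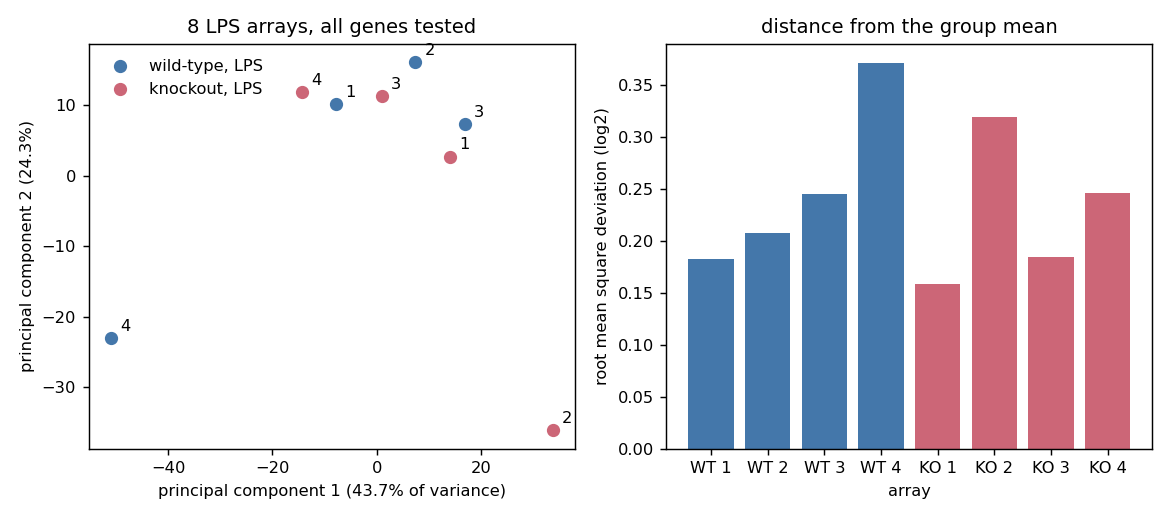
Left, positions of the 8 LPS arrays on the first and second principal components of all genes tested (43.7% and 24.3% of the variance), with the replicate number beside each point. Right, root mean square deviation of each array from the mean of its group, in log2 units. Wild-type array 4 and knockout array 2 lie apart, and the other 6 arrays of both genotypes are intermingled.

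After LPS, knockout and wild-type hearts had similar expression profiles, and the differences named here are differences of group means. The amino acid transporter Slc38a1 was higher in the knockout by 1.19 ± 0.20 on the log2 scale (limma standard error, 4 arrays a group), and the detoxifying enzyme Gstp1 lower by 0.53 ± 0.10. Neutrophil markers were on average higher and MHC class II genes lower, while the cytokine Tnf had a difference of 0.17 ± 0.12 and the contractile genes a median of 0.00.

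No gene differed between the genotypes after LPS at an adjusted p under 0.05 (0 of 18193, or 0%; limma with Benjamini-Hochberg adjustment, smallest adjusted p = 0.966, which Isy1 has). Before adjustment 638 genes (3.51%) had a limma p under 0.05, 291 higher (1.60%) and 347 lower (1.91%) in the knockout, where evenly spread p-values give 5%. The 4 knockout and 4 wild-type values did not overlap for 411 genes (2.26%), of which 196 were higher (1.08%) and 215 lower (1.18%) in the knockout. A fold difference of at least 2 was seen for 30 genes (0.165%), 20 higher and 10 lower, and 16 of these 30 had an unadjusted p of 0.05 or more; one of at least 1.5 was seen for 268 genes (1.47%). The median difference over all genes was -0.01 on the log2 scale, and the 5th and 95th percentiles were -0.32 and 0.27. The median half-width of the 95% confidence interval was 0.31. A gene described as higher or lower is so by its group means, and no named gene passed the adjusted test on these 8 arrays: their limma adjusted p lay between 0.966 and 1.00.

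**Figure D2:**
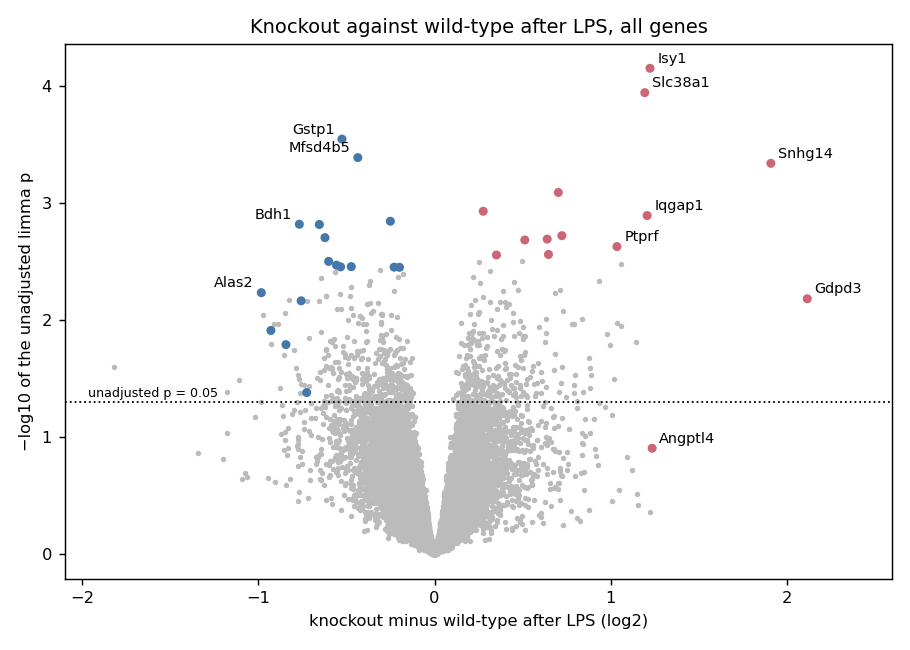
Knockout minus wild-type difference after LPS (horizontal, log2) against the negative log10 of the unadjusted limma p (vertical) for all 18193 genes. Coloured points are the named genes with the smallest p or the largest difference without overlap, red higher and blue lower in the knockout, and the dotted line marks an unadjusted p of 0.05. Isy1 and Slc38a1 lie at the top, and Gdpd3 and Snhg14 have the largest differences among the coloured genes.

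Slc38a1, Isy1, Iqgap1, Snhg14 and Ptprf were among the 12 genes of smallest p that were higher in the knockout. Differences are given as knockout minus wild-type on the log2 scale with the limma standard error. Slc38a1 encodes a sodium-coupled transporter of glutamine and other neutral amino acids. Its log2 levels were 5.95, 5.66, 5.42 and 6.30 on wild-type LPS arrays 1 to 4 and 6.88, 6.98, 6.95 and 7.29 on knockout LPS arrays 1 to 4. Every knockout array lay above every wild-type array, with a difference of 1.19 ± 0.20, or 2.29-fold (95% interval 0.76 to 1.63). A second probe set of Slc38a1 showed a difference of 0.78 ± 0.15. Without wild-type array 4 the difference was 1.35 (limma adjusted p = 0.268), and without that array and knockout array 2 it was 1.36 (adjusted p = 0.571). With all 16 arrays in the fit, which shares the spread of the saline arrays, Slc38a1 was the 1 gene called (0.00550% of genes; limma adjusted p = 0.0145).

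Isy1 encodes a spliceosome protein. Its levels were 5.35, 5.82, 5.28 and 5.29 on the wild-type arrays and 6.94, 6.67, 6.82 and 6.21 on the knockout arrays, again with no overlap. The difference was 1.22 ± 0.19 (95% interval 0.80 to 1.64), and leaving out wild-type array 4, knockout array 2 or both gave 1.18, 1.22 and 1.17. This rests on 1 probe set: the other probe sets of Isy1 gave differences of -0.01 ± 0.15 and -0.10 ± 0.10, so these probe sets disagree.

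Iqgap1 encodes a scaffold that links the cytoskeleton with calmodulin and small GTPases. Its levels were 9.57, 9.61, 9.26 and 8.44 in wild-type and 10.37, 10.95, 10.31 and 10.08 in knockout hearts, a difference of 1.21 ± 0.27 (95% interval 0.60 to 1.81). Wild-type array 4 was the lowest and knockout array 2 the highest of the 8, and without these arrays the difference was 0.77. Of the 6 other probe sets of Iqgap1, 5 had a difference above 0, between 0.21 and 0.98, and the sixth had one of -0.0063.

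Snhg14 is a long noncoding RNA of the imprinted Prader-Willi and Angelman region that hosts small nucleolar RNAs and runs antisense to Ube3a. Its levels were 5.97, 6.13, 6.51 and 5.78 in wild-type and 8.13, 9.04, 6.92 and 7.94 in knockout hearts, and the difference was 1.91 ± 0.37 (95% interval 1.08 to 2.74). Without knockout array 2, the highest, the difference was 1.57, and without that array and wild-type array 4 it was 1.46. The knockout arrays spread more widely than the wild-type arrays, and the lowest of them, array 3, lay just above the highest wild-type array. Both other probe sets of Snhg14 were higher in the knockout, by 1.94 ± 0.44 and 0.32 ± 0.09. Snhg11, another noncoding host RNA, had a difference of 0.51 ± 0.12.

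Ptprf encodes the receptor tyrosine phosphatase LAR. Its levels were 8.23, 7.04, 7.02 and 7.66 in wild-type and 8.45, 8.58, 8.35 and 8.71 in knockout hearts, with a difference of 1.04 ± 0.26 (95% interval 0.46 to 1.61), and its other probe sets gave 0.86 ± 0.24 and 0.30 ± 0.19. Wild-type array 1 came closest to the knockout arrays. Paqr7, a membrane progestin receptor, had a difference of 0.70 ± 0.15 (-0.01 ± 0.09 by its other probe set), and Nectin3, an adhesion molecule of cell junctions, one of 0.72 ± 0.17 (-0.06 to 0.14 by its 5 other probe sets). That of Nectin3 was 0.57 without wild-type array 4 and knockout array 2. The ganglioside synthase B4galnt1 and Spata6, a gene of sperm development, had differences of 0.65 ± 0.16 and 0.64 ± 0.15, and the other probe set of B4galnt1 gave -0.06 ± 0.09. For Rrh, the retinal protein peropsin, and the noncoding 9530020I12Rik the differences were 0.28 ± 0.06 and 0.35 ± 0.09 on levels below the probe set median of 4.64 in both genotypes. For all 12 of these genes the genotypes did not overlap, but the 12 were picked by smallest p on these same arrays. Over all genes, 1.08% were higher in the knockout without overlap.

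Gdpd3 and Angptl4 had large differences with low values on some wild-type arrays. Gdpd3 encodes an enzyme that makes lysophosphatidic acid. Its levels were 8.65, 5.45, 8.22 and 6.10 on wild-type arrays and 9.16, 9.29, 9.004 and 9.42 on knockout arrays, so wild-type hearts fell into 2 high and 2 low arrays while all knockout hearts were high. The difference was 2.12 ± 0.62 (95% interval 0.74 to 3.50), and it was 1.76 without wild-type array 4 and knockout array 2. The wild-type saline arrays also fell into 2 high and 2 low arrays, at 9.79, 9.49, 5.60 and 5.71, and the knockout saline arrays were all high, at 10.87, 9.16, 9.68 and 10.52. Angptl4, a secreted inhibitor of lipoprotein lipase, had levels of 10.40, 10.44, 10.22 and 6.62 in wild-type and 10.99, 10.44, 10.74 and 10.45 in knockout hearts, a difference of 1.24 ± 0.74 (95% interval -0.40 to 2.87). Wild-type array 4 alone was low, the nearest arrays of the genotypes lay within 0.01 of each other, and without wild-type array 4 the difference was 0.30.

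Gstp1, Bdh1, Dbt, Rbfox1, Myot and H2-Ab1 were among the 12 genes of smallest p that were lower in the knockout. Gstp1 encodes a glutathione transferase that conjugates electrophiles. Its levels were 11.97, 11.75, 11.77 and 11.79 in wild-type and 11.21, 11.26, 11.29 and 11.40 in knockout hearts, with a difference of -0.53 ± 0.10 (95% interval -0.74 to -0.31). The groups were tight and apart, and leaving out wild-type array 4 and knockout array 2 gave -0.52. Gstp1 has near-identical neighbouring copies in the mouse genome, which this probe set may not tell apart.

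Bdh1, the mitochondrial dehydrogenase that interconverts ketone bodies, had levels of 9.12, 9.58, 9.63 and 9.65 in wild-type and 9.06, 8.60, 8.81 and 8.44 in knockout hearts, a difference of -0.77 ± 0.18. Its other probe set gave -0.88 ± 0.28. Dbt encodes the E2 subunit of the complex that breaks down branched-chain amino acids; its levels were 8.16, 8.17, 8.17 and 8.56 (wild-type) and 7.78, 7.62, 7.41 and 7.75 (knockout), a difference of -0.62 ± 0.15. In both genes the highest knockout array lay below the lowest wild-type array.

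The splicing factor Rbfox1 had levels of 8.07, 7.92, 8.18 and 8.30 in wild-type and 7.16, 7.62, 7.53 and 7.55 in knockout hearts, a difference of -0.65 ± 0.15. Its 3 other probe sets gave -0.54 ± 0.18, -0.51 ± 0.19 and, on levels below the probe set median, -0.07 ± 0.11. Myot, a Z-disc protein of striated muscle, had a difference of -0.56 ± 0.15, and Unc45a, a myosin chaperone, one of -0.47 ± 0.12. Prxl2a, a peroxiredoxin-like protein, had one of -0.53 ± 0.14. The 2 other probe sets of Prxl2a gave -0.35 ± 0.12 and -0.12 ± 0.10. For Mfsd4b5, Erp27 (a protein of the endoplasmic reticulum), the noncoding Dgkeos and Atp6v0d2 (a proton pump subunit), the differences ran from -0.44 to -0.20, and all 4 genes lay below the probe set median in both genotypes. The other probe sets of Mfsd4b5 and Erp27 gave 0.04 ± 0.07 and 0.12 ± 0.08.

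The largest lower values without overlap belonged to Alas2, Pnpla7, Lrrc2, Bdh1, Asb11 and Folr2. Alas2, the first enzyme of haem synthesis in red cell precursors, had levels of 7.52, 7.70, 8.33 and 8.69 in wild-type and 7.46, 6.99, 7.27 and 6.57 in knockout hearts, a difference of -0.98 ± 0.28 (95% interval -1.61 to -0.36). That of Alas2 was -0.74 without wild-type array 4 and knockout array 2. The lysophospholipase Pnpla7 had a difference of -0.93 ± 0.30, which was -0.46 without wild-type array 4 and knockout array 2. Lrrc2, a leucine-rich repeat protein, had levels of 11.38, 11.35, 11.31 and 11.37 in wild-type hearts (SD 0.03, n = 4) and 10.50, 9.50, 11.00 and 11.05 in knockout hearts (SD 0.72, n = 4). Its difference of -0.84 ± 0.29 was -0.51 without knockout array 2, the lowest of the 8. Asb11, a ubiquitin ligase adaptor of muscle, had a difference of -0.76 ± 0.22 (-0.44 without both arrays), and Folr2, a folate receptor of resident macrophages, one of -0.73 ± 0.31 (-0.37 without wild-type array 4, which was the highest).

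**Figure D3:**
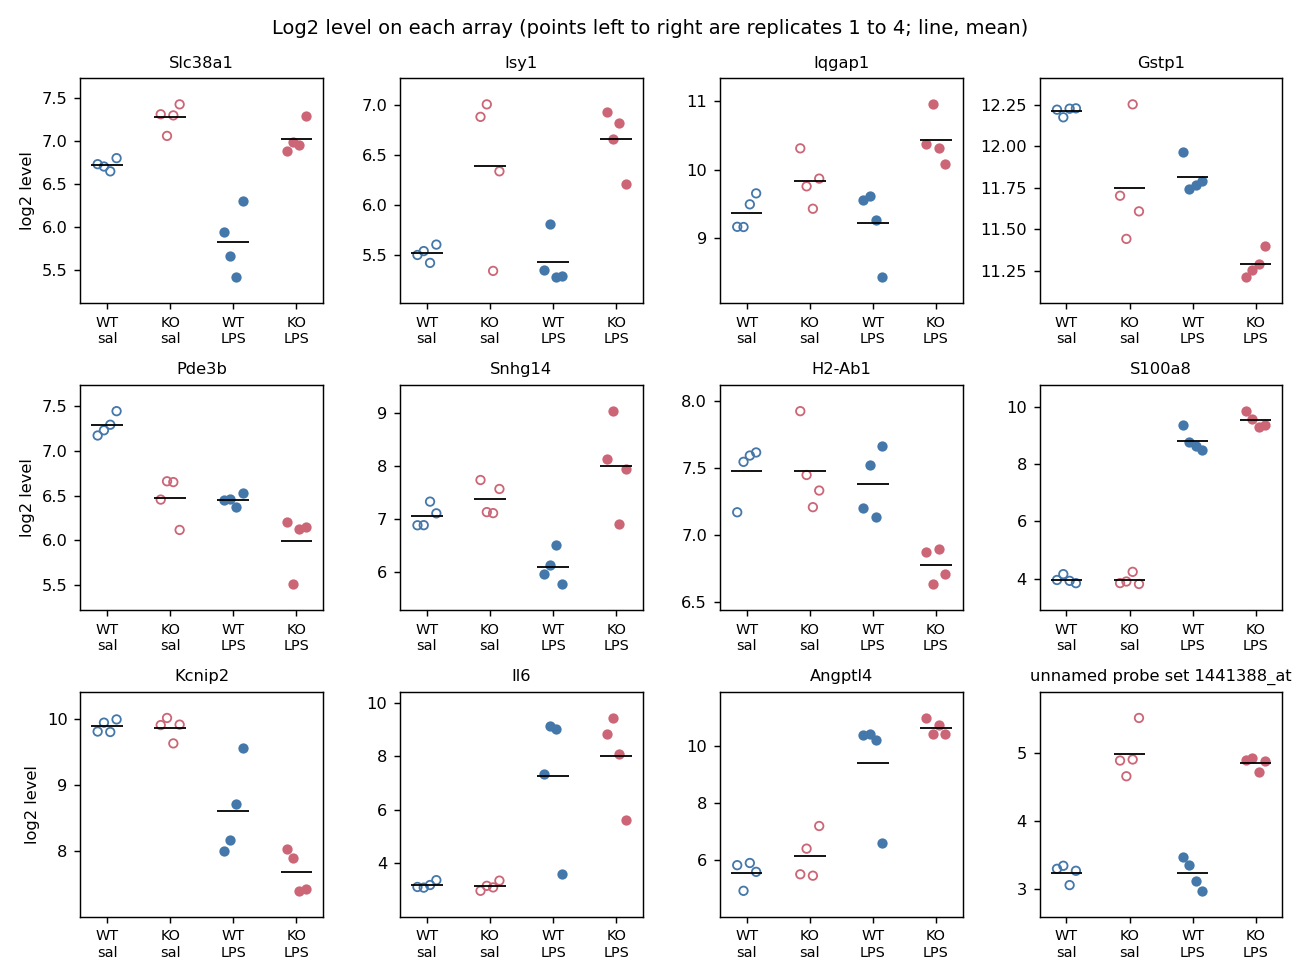
Log2 level of 11 named genes and 1 unnamed probe set on each of the 16 arrays (blue, wild-type; red, knockout; open, saline; filled, LPS; line, group mean of 4 arrays). The knockout and wild-type LPS arrays do not overlap for Slc38a1, Isy1, Iqgap1, Gstp1, Pde3b, Snhg14, H2-Ab1, Angptl4 and the unnamed probe set, and they overlap for S100a8, Kcnip2 and Il6. In Il6 and Angptl4, wild-type LPS array 4 lies far below the other wild-type LPS arrays.

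The cytokines, whose release the A2AR restrains in leukocytes, overlapped between the genotypes for each of the 4 named here. None of the 19 measured cytokines had an unadjusted limma p under 0.05, 9 were above and 10 below 0, and their median difference was -0.02, beside -0.01 over all genes. Il6, an acute inflammatory cytokine, had levels of 7.34, 9.13, 9.02 and 3.61 in wild-type and 8.84, 9.44, 8.11 and 5.63 in knockout hearts. The low arrays were wild-type array 4 and knockout array 4, and the interval of the difference, 0.73 ± 1.19, ran from -1.93 to 3.38; without wild-type array 4 the difference was -0.49. Tnf, the early cytokine of endotoxemia, had levels of 5.78, 5.46, 5.64 and 5.62 (wild-type) and 5.62, 5.91, 5.86 and 5.79 (knockout), a difference of 0.17 ± 0.12 with an interval of -0.11 to 0.44. For the anti-inflammatory Il10, which lay below the probe set median, the interval was -0.14 to 0.14, and for Il1b it was -0.51 to 0.38. Tnf, Il6, Il10 and Il1b do not meet the rule for naming genes; they were added once their values were known.

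Chemokine values followed single arrays. All 6 neutrophil-attracting CXC chemokines had a difference above 0, with a median of 0.41, and none had an unadjusted limma p under 0.05; without wild-type array 4 the median was -0.08, without knockout array 2 0.16 and without both -0.19. Cxcl5, a ligand of the neutrophil receptor Cxcr2, had levels of 8.31, 9.12, 9.85 and 4.62 in wild-type and 9.62, 10.56, 9.37 and 5.65 in knockout hearts. Array 4 of each genotype was the low one, and the difference of 0.82 ± 1.23 had an interval of -1.92 to 3.56; without wild-type array 4 it was -0.29. Among 14 CC chemokines the median was -0.15 (-0.06 without wild-type array 4, -0.09 without knockout array 2 and -0.02 without both), and the monocyte attractant Ccl12 had the lowest value, -1.06 ± 0.81, which was -0.32 without wild-type array 4 and -0.02 without that array and knockout array 2. Of 19 cytokine receptors and SOCS inhibitors, the decoy receptor Il1r2 was higher at an unadjusted p under 0.05 (0.50 ± 0.19). Il10rb, a chain of the interleukin-10 receptor, was lower at that p (-0.44 ± 0.19, or -0.25 without knockout array 2). The other probe set of Il10rb gave -0.03 ± 0.16. Without wild-type array 4, none of these 19 genes had such a p.

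Neutrophil transcripts were higher on average in the knockout hearts. All 8 measured neutrophil markers had a difference above 0, with a median of 0.45, and 2 of 8 had an unadjusted limma p under 0.05, where 1.60% of all genes were higher at that p. The calgranulin S100a8 had levels of 9.34, 8.76, 8.64 and 8.49 in wild-type and 9.84, 9.57, 9.30 and 9.37 in knockout hearts, a difference of 0.71 ± 0.20 (95% interval 0.26 to 1.17). Wild-type array 1 lay within the knockout range, so the groups overlapped. Its partner S100a9 had a difference of 0.56 ± 0.23 with overlap, or 0.40 without wild-type array 4. After saline the difference of S100a9 was 0.43 ± 0.13, that of S100a8 was -0.02 ± 0.11, and the median of the 8 markers was -0.0039. The granule protein Ngp had a difference of 0.88 ± 0.47 after LPS, with wild-type array 4 far below the rest and 0.37 without it. Mean levels of the 8 markers were 6.15, 5.69, 5.76 and 5.47 on wild-type and 6.38, 6.41, 6.05 and 6.07 on knockout arrays, against 3.89 to 4.09 on the saline arrays. The median of the list was 0.33 without wild-type array 4 and 0.28 without both arrays. In bulk tissue, more cells of a type and more RNA per cell cannot be told apart.

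Transcripts of MHC class II, which displays peptides to CD4 T cells, were lower on average in the knockout hearts. Of 7 measured genes, 4 had an unadjusted limma p under 0.05 and a lower level, where 1.91% of all genes did, and the median was -0.40. Without wild-type array 4 the count was 2 of 7 and the median -0.33, and without both arrays they were 2 of 7 and -0.28. The list means were 5.65, 5.91, 5.71 and 5.99 on wild-type and 5.50, 5.28, 5.54 and 5.48 on knockout arrays, which did not overlap; this held for 3 of the 58 lists. H2-Ab1, a beta chain, had levels of 7.21, 7.52, 7.14 and 7.66 in wild-type and 6.87, 6.64, 6.90 and 6.71 in knockout hearts, a difference of -0.60 ± 0.16 (95% interval -0.95 to -0.25). Every knockout array lay below every wild-type array, and the difference of H2-Ab1 was -0.46 without wild-type array 4 and knockout array 2. Its other probe sets gave -0.69 ± 0.20 and -0.36 ± 0.22.

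The alpha chain H2-Aa had levels of 6.80, 7.29, 7.03 and 7.56 (wild-type) and 6.75, 6.46, 6.90 and 6.62 (knockout), which overlapped, with a difference of -0.49 ± 0.18 (-0.28 without both arrays). H2-Eb1 lay below the probe set median in both genotypes and had a difference of -0.23 ± 0.08 without overlap. After saline the MHC class II list had a median genotype difference of 0.02, and H2-Ab1 one of -0.0032 ± 0.15. The test of the difference between the LPS and saline effects gave -0.60 ± 0.23 for H2-Ab1 (limma adjusted p = 0.959). Macrophage and monocyte markers, of cells that carry MHC class II, ranged over 6.95 to 8.57 in wild-type and 6.70 to 7.71 in knockout hearts by their mean over 10 genes; 8 of 10 were below 0, and none of the 10 had an unadjusted p under 0.05. Their part in the MHC class II values was not tested.

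The promoters of H2-Aa and H2-Eb1 are shown because the cyclic AMP response element, TGACGTCA, is the site CREB binds downstream of the A2AR, and because MHC class II promoters are known to carry a related X box beside a Y box with the letters CCAAT or ATTGG. Capitals mark TGACGTCA, CCAAT and ATTGG, searched on both strands (TGACGTCA reads the same on each, and ATTGG is CCAAT on the other strand). The windows, from RefSeq on GRCm38.p6, hold 250 bases before and 50 after the gene start. They lie at chr17:34287774-34288073 on the minus strand for H2-Aa and at chr17:34305617-34305916 on the plus strand for H2-Eb1, and both are written 5′ to 3′ along the gene.
H2-Aa: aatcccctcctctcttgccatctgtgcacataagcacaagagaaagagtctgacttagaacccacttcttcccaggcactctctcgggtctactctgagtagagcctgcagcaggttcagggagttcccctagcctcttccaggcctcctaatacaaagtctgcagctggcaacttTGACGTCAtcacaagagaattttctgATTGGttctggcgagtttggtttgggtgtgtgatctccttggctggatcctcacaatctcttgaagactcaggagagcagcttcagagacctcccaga
H2-Eb1: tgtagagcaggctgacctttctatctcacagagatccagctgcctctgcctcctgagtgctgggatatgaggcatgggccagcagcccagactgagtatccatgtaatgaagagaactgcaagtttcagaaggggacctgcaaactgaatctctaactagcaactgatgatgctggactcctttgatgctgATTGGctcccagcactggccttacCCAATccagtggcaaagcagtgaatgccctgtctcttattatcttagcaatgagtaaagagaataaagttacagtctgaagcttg
H2-Aa held 1 TGACGTCA and 1 ATTGG, and H2-Eb1 held 1 CCAAT and 1 ATTGG and no TGACGTCA. Of 32851 windows of this length, 588 (1.79%) held TGACGTCA, 37.4% held CCAAT or ATTGG and 0.642% held both kinds. Among the 422 tested genes with a TGACGTCA window, 4 were higher and 5 lower at an unadjusted limma p under 0.05 (2.13%), beside 3.49% of the 14452 tested genes with any window. The median difference was -0.01 in each set, and 0 of the 422 genes were called. A match of letters is a description of the window and shows neither binding nor a cause.

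Interferon-stimulated genes had lower values in the knockout for 24 of 27 measured members, with a median of -0.31, and 3 of the 27 were lower at an unadjusted limma p under 0.05, where 1.91% of all genes were; the 3 became 2 without knockout array 2, and 4 without wild-type array 4 or without both. The antiviral enzyme gene Oas1a had levels of 8.31, 8.78, 8.32 and 9.35 in wild-type and 7.81, 8.48, 7.84 and 8.04 in knockout hearts, a difference of -0.65 ± 0.25, or -0.43 without wild-type array 4. Those of the RNA-sensing kinase Eif2ak2 were 6.45, 7.18, 7.32 and 6.85 (wild-type) and 6.48, 6.31, 6.55 and 6.53 (knockout), a difference of -0.49 ± 0.19, while its 2 other probe sets gave -0.41 ± 0.18 and 0.09 ± 0.42. In both genes at least 1 wild-type array lay within the knockout range. Mx1, an antiviral GTPase, had a difference of -0.67 ± 0.27, and -0.39 without wild-type array 4. List means were 8.33, 9.63, 9.40 and 8.57 on wild-type and 8.68, 8.95, 8.55 and 8.64 on knockout arrays, so wild-type arrays 2 and 3 were high, array 4 lay within the knockout range and array 1 below it.

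The interferon-induced GTPases that attack intracellular pathogens lay on the other side of 0: all 8 measured members had a difference above 0, with a median of 0.22 (-0.05 without wild-type array 4 and -0.10 without both arrays), and none had an unadjusted p under 0.05. MHC class I antigen processing had a median of -0.09 over 12 genes (-0.16 without wild-type array 4), with none at that p. Of 21 genes of Toll-like receptor and NF-kB signalling, 3 were lower at an unadjusted p under 0.05 (1.91% of all genes were) and none higher; 2 were lower without knockout array 2 and 1 without both arrays. These were Ly96, which encodes the MD-2 subunit that binds LPS (-0.41 ± 0.13), the LPS co-receptor Cd14 (-0.44 ± 0.17, or -0.28 without both arrays) and Nfkbie, an inhibitor of NF-kB (-0.57 ± 0.20). Nfkbie had levels of 6.08, 5.62, 5.52 and 5.99 in wild-type and 4.73, 5.44, 5.46 and 5.32 in knockout hearts. These did not overlap, but another probe set of Nfkbie gave 0.27 ± 0.12, so the probe sets disagree. All 11 complement genes had a difference below 0, with a median of -0.36 that was -0.13 without wild-type array 4, -0.20 without knockout array 2 and 0.02 without both, and none had an unadjusted p under 0.05. The macrophage and monocyte markers had a median of -0.39, or -0.13 without wild-type array 4, -0.20 without knockout array 2 and 0.09 without both; their part in the complement values was not tested.

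**Figure D4:**
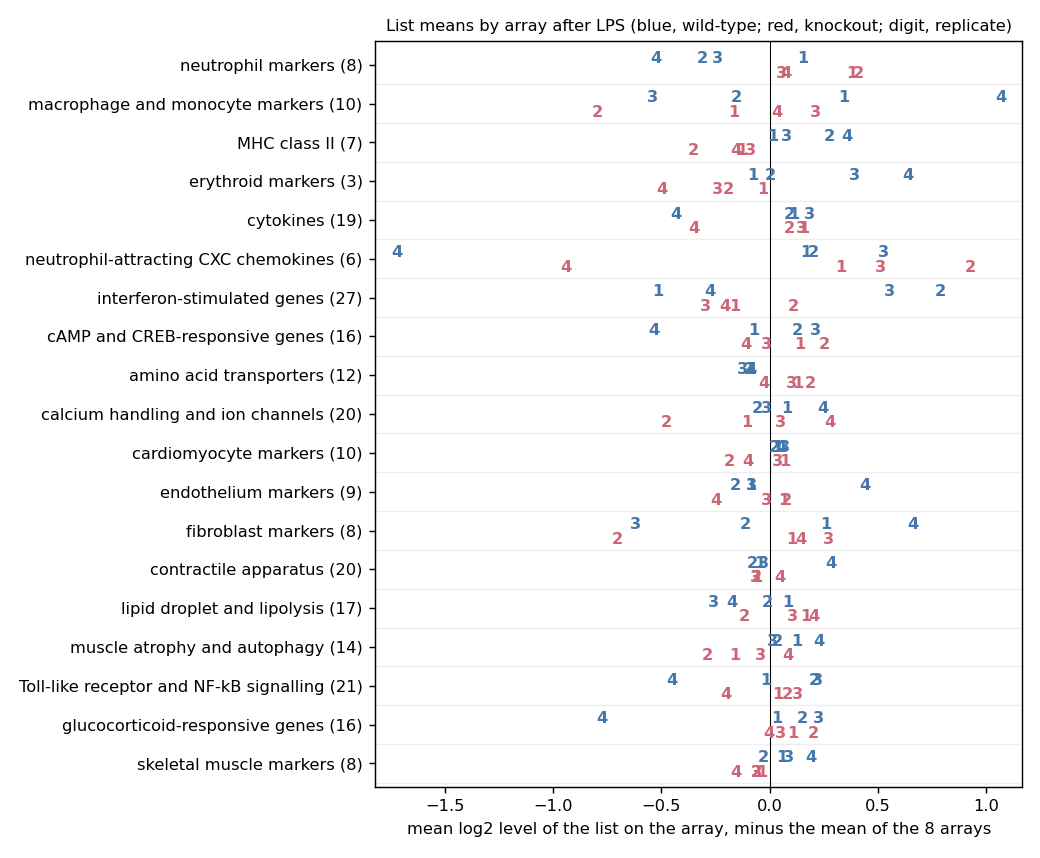
Mean log2 level of 19 gene lists on each LPS array, as the difference from the mean of the 8 arrays (blue digits, wild-type; red digits, knockout; each digit is the replicate number; measured genes in brackets). The genotypes do not overlap for MHC class II and skeletal muscle markers (knockout lower) and amino acid transporters (knockout higher). The skeletal muscle list includes Acta1, and the transporter list includes Slc38a1. Wild-type array 4 is the lowest array for the CXC chemokines and the highest for macrophage markers.

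In the receptor's own pathway, differences of both signs were seen and the list medians turned with single arrays. Of 9 measured genes of adenosine handling and the other adenosine receptors, none had an unadjusted limma p under 0.05, and the median was 0.01, with members from -0.47 to 0.22. Without wild-type array 4 the median was -0.08 and 1 gene was lower at that p, without knockout array 2 it was -0.01 with none, and without both it was -0.05 with 1 lower. Of 16 cAMP and CREB-responsive genes 1 was lower at that p, and the median was 0.12, with members from -0.46 to 0.66; it was -0.07 without wild-type array 4, 0.08 without knockout array 2 and -0.03 without both. That gene was Pde3b, a phosphodiesterase that breaks down cyclic AMP. Its levels after LPS were 6.45, 6.46, 6.38 and 6.53 in wild-type and 6.21, 5.52, 6.13 and 6.15 in knockout hearts, a difference of -0.46 ± 0.17 (95% interval -0.83 to -0.08) without overlap. Knockout array 2 was the lowest, and the difference without it was -0.29.

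On the saline arrays, which share no array with the LPS comparison, Pde3b levels were 7.17, 7.23, 7.29 and 7.44 in wild-type and 6.46, 6.66, 6.65 and 6.12 in knockout hearts, and the gene was called there (difference -0.81 ± 0.12; limma adjusted p = 0.0325). Wild-type saline arrays 1 and 4 had skeletal muscle marker means of 6.88 and 8.41, where the other 6 saline arrays had 4.81 to 5.04, and without them the Pde3b difference was -0.79 (adjusted p = 0.321). The part of these markers in the value was not tested. Adrenergic receptors and adenylyl cyclases had a median of 0.01 over 9 genes (0.14 without both LPS arrays), with none at an unadjusted p under 0.05. Of 12 P2 purinergic receptors, which respond to ATP and ADP, P2ry1 was lower at that p: its levels were 5.08, 5.16, 4.81 and 5.41 in wild-type and 4.38, 4.41, 4.48 and 4.97 in knockout hearts, a difference of -0.55 ± 0.17, with knockout array 4 inside the wild-type range.

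Lists of contraction and excitation had medians near 0. The contractile apparatus (20 genes, from -0.66 to 0.44) had a median of 0.00 and the cardiomyocyte markers (10 genes) one of -0.01, and no member of either list had an unadjusted limma p under 0.05. Among 20 calcium handling and ion channel genes, 1 was higher and 1 lower at that p, with a median of -0.08 that was 0.07 without both arrays, where 3 were higher and 1 lower. Kcnip2, the auxiliary subunit of the transient outward potassium channel, had levels of 8.00, 8.16, 8.71 and 9.56 in wild-type and 8.03, 7.89, 7.39 and 7.42 in knockout hearts, a difference of -0.93 ± 0.32. The highest knockout array lay just above the lowest wild-type array, and the difference without wild-type array 4 was -0.61. The 2 other probe sets of Kcnip2 gave -1.21 ± 0.34 and, on levels below the probe set median, -0.08 ± 0.11. The sodium-calcium exchanger Slc8a1 had levels of 8.18, 8.55, 8.45 and 7.41 (wild-type) and 8.92, 8.50, 8.85 and 9.06 (knockout), a difference of 0.69 ± 0.25, and 0.44 without wild-type array 4, which was the lowest; the groups overlapped, and its 3 other probe sets gave -0.03 to 0.18. Acta1, a skeletal actin that the stressed heart re-expresses, had a difference of -0.86 ± 0.31 after LPS and of -1.08 ± 0.17 after saline (limma adjusted p = 0.0575). Without wild-type saline arrays 1 and 4, which had high skeletal muscle marker means, the saline difference was -0.89 (limma adjusted p = 0.626). Skeletal muscle marker means were 4.76 to 4.98 in wild-type and 4.63 to 4.75 in knockout LPS hearts, and 6 of the 8 markers lay below the probe set median there. Acta1 is itself among the 8, so it enters these means, and the part of the other markers in its value was not tested.

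Plin2 and Plin5, which coat lipid droplets, were higher in the knockout, and Trim63, Gabarapl1 and Ulk1, of protein breakdown, were lower. Of 17 lipid droplet and lipolysis genes, 3 were higher and none lower at an unadjusted limma p under 0.05, where 1.60% of all genes were higher, with a median of 0.07. The median was 0.14 without wild-type array 4, 0.26 without knockout array 2 and 0.28 without both, and the 3 became 2 on leaving out either array alone. Plin2 had levels of 11.33, 11.27, 11.02 and 10.49 in wild-type and 11.65, 11.68, 11.34 and 11.48 in knockout hearts, a difference of 0.51 ± 0.18 without overlap, and 0.33 without wild-type array 4. Plin5, which tethers droplets to mitochondria, had a difference of 0.42 ± 0.18 after LPS and of -0.28 ± 0.10 after saline. Its LPS levels overlapped between the genotypes, and its other probe set gave 0.20 ± 0.23 there. Adipocyte marker means were 5.76 to 6.37 in wild-type and 5.75 to 5.89 in knockout hearts, and 5 of these 6 markers had a difference below 0. Of 14 genes of muscle atrophy and autophagy, 3 were lower and none higher at that p, where 1.91% of all genes were lower, with a median of -0.24. Of the 14, 12 had a difference below 0 and 2 above, and Fbxo32 had the highest, 0.32. Without wild-type array 4, knockout array 2 and both, the 3 became 1, 2 and 2, and the median -0.17, -0.11 and -0.11. The muscle ubiquitin ligase Trim63 had levels of 10.73, 10.61, 10.86 and 10.80 (wild-type) and 10.32, 10.21, 10.45 and 10.50 (knockout), a difference of -0.38 ± 0.11 without overlap. The autophagosome gene Gabarapl1 and the autophagy kinase Ulk1 had differences of -0.50 ± 0.20 and -0.33 ± 0.15, both with overlap between the genotypes. Without wild-type array 4 that of Gabarapl1 was -0.32, and without both arrays that of Ulk1 was -0.20.

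Amino acid transporters had list means of 6.62 to 6.66 in wild-type and 6.72 to 6.93 in knockout hearts, which did not overlap; 1 of 12, Slc38a1, had an unadjusted limma p under 0.05, and the median was 0.17 (0.09 without wild-type array 4, 0.07 without knockout array 2, 0.08 without both). Fatty acid oxidation, the tricarboxylic acid cycle and oxidative phosphorylation had medians of -0.06, -0.12 and -0.05, with none of their 22, 21 and 28 genes at that p; without knockout array 2 they were 0.03, -0.03 and -0.02, and without both arrays 0.05, 0.00033 and -0.002. Klf15, a regulator of metabolism induced by glucocorticoids, had a difference of -0.58 ± 0.22 (-0.37 without wild-type array 4). Hspa5, the endoplasmic reticulum chaperone BiP, had levels of 11.78, 11.96, 12.02 and 11.78 in wild-type and 12.32, 12.28, 12.17 and 12.06 in knockout hearts, a difference of 0.32 ± 0.10 without overlap. The basement membrane collagen Col4a2 had a difference of 0.30 ± 0.12, and the collagen-binding proteoglycan Fmod, below the probe set median, one of -0.42 ± 0.13 (-0.31 to 0.21 by its 5 other probe sets).

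Lists of other cell types depended on the arrays kept. With all 8 arrays, endothelium, fibroblast, smooth muscle and pericyte, T and NK cell, B cell, platelet and atrial lists had medians between -0.08 and 0.11, and no member of these lists had an unadjusted limma p under 0.05. The fibroblast median was -0.08 with all arrays, 0.19 without wild-type array 4, 0.12 without knockout array 2 and 0.31 without both. That of smooth muscle and pericytes was 0.11, or 0.27 without wild-type array 4 and 0.20 without both, and in each of the latter settings 1 of 7 was higher at that p. Endothelium and atrial markers had medians of 0.10 and 0.06 without both arrays. Of 3 measured erythroid markers, 2 were lower at that p, where 1.91% of all genes were. The third, the alpha globin gene Hba-a1, had a difference of -0.01. The median was -0.45, or -0.30 with 1 gene at that p without wild-type array 4, with list means of 5.24, 5.32, 5.71 and 5.96 in wild-type and 5.28, 5.13, 5.08 and 4.82 in knockout hearts that overlapped at knockout array 1. Beside Alas2 this list holds the red cell anion exchanger Slc4a1, with a difference of -0.45 ± 0.18, while its 2 other probe sets gave -0.13 ± 0.09 and -0.13 ± 0.18. Epicardium and mesothelium markers were below 0 for 5 of 5 genes, and 1 of the 5 was lower at that p. Their means were 4.99 to 5.98 in wild-type and 4.87 to 5.14 in knockout hearts. The median was -0.41, or -0.15 without wild-type array 4. None of the 58 lists held a gene that passed the adjusted test. Their members were 720 measured genes.

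The genes that stood out after LPS were then read on the saline arrays, which share no array with the LPS comparison. Of the 24 genes of smallest p after LPS, 17 had the same sign after saline, 7 had it at an unadjusted limma p under 0.05, and 2, Nectin3 and Atp6v0d2, had the opposite sign at that p. Over all genes 7.15% had a saline p under 0.05. None of the 24 was called after saline (0.0770% of all genes were), and without wild-type saline arrays 1 and 4 the count of 7 became 5, beside 4.91% of all genes. Slc38a1 had saline levels of 6.73, 6.70, 6.65 and 6.80 in wild-type and 7.31, 7.06, 7.30 and 7.42 in knockout hearts, a difference of 0.55 ± 0.09 without overlap (limma adjusted p = 0.0630). The LPS minus saline difference of Slc38a1 was -0.89 ± 0.16 for the wild-type and -0.25 ± 0.16 for the knockout, and the test of that difference gave 0.64 ± 0.22 (limma adjusted p = 0.959).

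Isy1, Iqgap1, Gstp1 and Myot also had saline differences of the same sign at an unadjusted p under 0.05, of 0.87 ± 0.28, 0.47 ± 0.16, -0.46 ± 0.13 and -0.39 ± 0.16. On leaving out wild-type saline arrays 1 and 4, that of Myot was -0.30 and no longer met this threshold. Those of Isy1, Iqgap1 and Gstp1 still met it, at 0.91, 0.51 and -0.45. The part of the skeletal muscle markers in the Myot value was not tested. For Isy1 and Gstp1 knockout saline array 3 lay at the wild-type level, at 5.35 and 12.25. Ptprf, Rbfox1 and Dbt had saline differences of -0.22 ± 0.15, 0.14 ± 0.08 and -0.02 ± 0.11. Their differences between the LPS and the saline effect were 1.26 ± 0.32, -0.79 ± 0.16 and -0.60 ± 0.19. At an unadjusted p under 0.05 the interaction was passed by 18 of the 24 genes, which were picked on the LPS arrays that enter it, and by 4.47% of all genes; no gene passed after adjustment (0%). Conversely, of the 14 genes called after saline, 12 had the same sign after LPS and 4 had it at an unadjusted p under 0.05. Over all genes, 3.51% had such a p after LPS, in either direction. Without wild-type saline arrays 1 and 4, which had high skeletal muscle marker means, 2 genes were called after saline. Across all 18193 genes the Pearson correlation of the LPS and the saline difference was 0.043, a value across genes, which are not independent replicates.

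**Figure D5:**
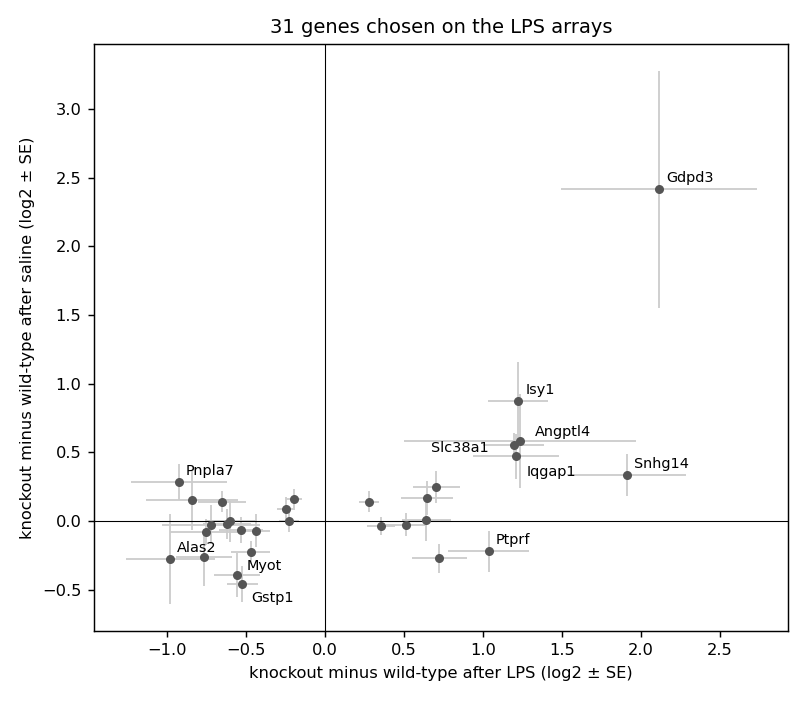
Knockout minus wild-type difference after LPS (horizontal) and after saline (vertical) for the 31 genes of smallest p or largest difference without overlap on the LPS arrays, in log2 units with limma standard errors. The genes were chosen on the horizontal axis, so only the vertical positions were free. Gdpd3, Isy1, Slc38a1, Iqgap1, Snhg14 and Angptl4 lie above 0 on both axes, and Ptprf lies below 0 after saline.

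When all 45037 probe sets other than controls were tested, those without a gene name included, 1 was called after LPS (0.00222%). This was the probe set 1441388_at, for which the sources used here give no gene. Its log2 levels were 3.48, 3.36, 3.11 and 2.97 on wild-type LPS arrays 1 to 4 and 4.90, 4.93, 4.72 and 4.89 on the knockout LPS arrays, higher by 1.63 ± 0.12 in the knockout (limma adjusted p = 0.00334). After saline its levels were 3.30, 3.34, 3.06 and 3.27 in wild-type and 4.89, 4.66, 4.91 and 5.52 in knockout hearts, a difference of 1.75 ± 0.16 (adjusted p = 0.00546), and of the 11 probe sets called after saline (0.0244%) it was the 1 also called after LPS. All 8 knockout arrays lay above all 8 wild-type arrays. The test of the difference between both effects gave -0.12 ± 0.21 (limma adjusted p = 0.967). Leaving out each LPS array in turn gave differences of 1.55 to 1.71 with adjusted p of 0.00708 to 0.0345.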

How the data were processed

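The 16 arrays (Affymetrix mouse expression arrays, ventricular myocardium, 4 arrays for each genotype and treatment) were deposited by the authors as log2 values made with RMA, per the labels; background correction, normalization and probe set summary are parts of RMA, and the sources used here name neither its version nor its software. Total RNA was extracted with Trizol and cleaned on columns after DNase, and biotinylated cRNA was hybridised. RMA compresses low signals. Values below the median of 4.64 are in the lower part of the range, and the 5th percentile of all values was 2.92. The wild-type levels of the unnamed probe sets described here lay close to that percentile.

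Of 45101 probe sets, 64 are controls, 34945 name 1 gene, 932 several and 9160 none in the platform annotation, which can be old; 34741 of the 34945 matched an Entrez ID of GRCm38.p6. Each of 18193 genes was represented by its probe set of highest mean over the 16 arrays, and the other probe sets come from a fit of all probe sets. Groups were taken from the labels. The test was limma 3.58.1 (R 4.3.3) on the 8 LPS arrays alone, with an intensity trend and Benjamini-Hochberg adjustment over all genes; the saline arrays were fitted alone and the interaction on all 16. No test was made of a list as a whole.

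Named genes are those past the adjusted threshold, the 12 of smallest p and the 6 of largest non-overlapping difference in each direction, and up to 3 members of smallest p of each list; 65 genes are described, 4 of them outside this rule. The 58 lists (790 genes) and the genes described were chosen with earlier results of these data known, and the search of all probe sets and of promoters was added after seeing the data. Same-numbered arrays of the genotypes were checked for pairing, and the correlations of their deviations were -0.03, 0.00, -0.18 and 0.33. The labels do not say whether the numbers pair arrays, and 4 such values cannot decide it. The scripts were tested on simulated data. Alternatives were leaving out arrays, array weights, the replicate block, all 16 arrays, no trend, a signal filter, mean probe sets and median centring. The transcript of the targeted receptor is not reported here, so the genotypes rest on the labels.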

Additional observations from a re-analysis of the deposited data

Results flagged for a closer look

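In 17 of 168 groups of 4 arrays examined (10.1%), 1 array lay far from the other 3 by Dixon's criterion. By chance it flags about 1 in 20 of groups that are independent and not selected. The groups here were those of the 65 named genes and 19 lists. They share arrays, and many of the genes were chosen on these arrays, so that rate cannot be set against the 10.1%. Of the 17, 8 were wild-type LPS array 4, 2 each knockout arrays 2 and 3, 3 knockout array 4, and 1 each wild-type arrays 1 and 2.

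Wild-type array 4 was low for Angptl4 (6.62, others 10.22 to 10.44) and for the neutrophil granule gene Ngp (5.28, others 7.20 to 7.45). It was high for the branched-chain amino acid enzyme Dbt (8.56, others 8.16 to 8.17) and the macrophage receptor Folr2 (6.87, others 5.35 to 5.58). Its list means were low for cytokines (4.999, others 5.53 to 5.62) and neutrophil-attracting CXC chemokines (4.77, others 6.66 to 7.02). They were high for endothelium markers (8.75, others 8.15 to 8.23) and the contractile apparatus (12.49, others 12.13 to 12.18).

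Knockout array 4 was low for the mean of the cytokines (5.09, others 5.53 to 5.59) and high for the mean of the contractile apparatus (12.25, others 12.14 to 12.15) and for Klf15 (8.42, others 7.94 to 7.98). Knockout array 2 was low for Prxl2a (6.24, others 6.64 to 6.67) and Pde3b (5.52, others 6.13 to 6.21). Knockout array 3 was high for Il10 (3.27, others 3.05 to 3.08) and Il1b (5.59, others 4.71 to 4.85). Wild-type array 2 was high for Isy1 (5.82, others 5.28 to 5.35), and wild-type array 1 low for Bdh1 (9.12, others 9.58 to 9.65).

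Among probe sets without a gene name, which enter no gene test, 1441388_at was higher in the knockout after LPS by 1.63 (limma adjusted p = 0.00334), with the same direction after saline.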

How the results depend on the processing

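Across 16 other settings, 65 named genes gave 1028 values, of which 1014 kept their direction and their side of the adjusted threshold; 61 genes kept their sign in every setting. The others were Il6 (-0.49 to 1.52 on leaving out each array in turn, negative without wild-type array 4; -0.97 without it and knockout array 2; -0.056 with array weights), Cxcl5 (-0.29 to 1.87, negative without wild-type array 4; -0.88 without both), Il10 (-0.049 to 0.023, negative without wild-type array 2 (-0.02) or knockout array 3; -0.0045 with arrays centred on their medians) and Il1b (-0.27 to 0.038, positive without wild-type array 4 or knockout arrays 1 (0.01) or 2 (0.02); 0.13 without both; 0.077 with weights). All 4 had intervals that hold 0, and the cause was not tested. The count of genes called stayed at 0 except with all 16 arrays in the fit, where it was 1, Slc38a1, which was also the count of named genes called there. The count at an unadjusted p under 0.05 was 474 to 1014 on leaving out 1 array (1014 without knockout array 4), 1375 with all 16 arrays, 970 with array weights and 333 of 11228 genes above the median signal, a setting that tests fewer genes. With the replicate block, 0 genes were called and 818 had an unadjusted p under 0.05, and it changed no call. After saline, the 1 named gene called, Pde3b, became 0 without wild-type saline arrays 1 and 4 (adjusted p = 0.321). Over all probe sets, 1 call became 3 without knockout array 2, 3 without that array and wild-type array 4, and 4 with all 16 arrays; leaving out each of the arrays in turn gave 1 to 3. With 4 arrays a group the median standard error was 0.139 and the median interval half-width 0.31.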

Other observations

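The unnamed probe set 1449603_at had the second smallest p of all probe sets after LPS: its log2 levels were 2.89, 2.85, 3.07 and 2.79 on wild-type and 4.64, 5.81, 4.34 and 4.67 on knockout LPS arrays, a difference of 1.97 ± 0.26 (limma adjusted p = 0.385). All 4 knockout arrays lay above the wild-type arrays. After saline its levels were 2.97, 3.06, 2.88 and 2.92 in wild-type and 5.05, 3.99, 3.60 and 4.15 in knockout hearts, a difference of 1.24 ± 0.23 (limma adjusted p = 0.171), again without overlap.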
